A study of Mus musculus with 6 samples.

Results

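Fabp1, which encodes the liver-type fatty acid binding protein, and Krt79, which encodes a type II keratin, are among the genes with the largest deficits in Bmi1 mutant lung cells. Both are also listed among the genes of mouse alveolar macrophages. The question here is whether they were lower together with other alveolar macrophage genes or alone. Fabp1 and Krt79 were set beside 8 such genes, Marco, Pparg, Chil3, Atp6v0d2, Cidec, Itgax, Plet1 and Fabp4. Every probe set annotated to 1 gene symbol that equals a member was taken, which gave 10 of 18193 genes and 18 of 34945 probe sets. Fabp1 and Krt79 were chosen by their difference between the genotypes, and the other 8 for being known from alveolar macrophages, with results of these arrays in view. The genotype differences of the 10 genes are therefore descriptions of these arrays and not tests.

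The arrays compared 2 genotypes on a mixed Bl6/129 background, Bmi1 wild-type and Bmi1 null, with 3 Affymetrix Mouse Genome 430 2.0 arrays each. Bmi1 encodes a subunit of a Polycomb repressive complex. The mice were females of 4 months, given no treatment that the labels name. Freshly isolated lung cells were sorted to be negative for CD31, which marks endothelium, and for CD45, which marks blood cells, and their RNA was amplified before labelling. The labels say neither how many mice stand behind an array nor which part of Bmi1 is missing, so the p values measure only the spread between these samples.

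Alveolar macrophages live in the air spaces and take up and degrade surfactant, the lipid and protein film that lines them. Their precursors settle in the lung around birth, and the cytokine GM-CSF from the lung epithelium, with TGF-beta, switches on the nuclear receptor PPARG, which drives genes of lipid uptake, storage and breakdown. They carry CD45, so a sort that excludes CD45 is meant to leave them out. Fabp1 is best known from liver and small intestine, where it shuttles fatty acids inside the cell, and Krt79 from skin, where it marks cells lining the upper hair follicle and its sebaceous duct.

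The stretches before the start sites of Fabp1 and Krt79 are shown because these genes had the greatest deficits of the 10, and because regulators of the alveolar macrophage program bind known short motifs. They are 250 bases long, run 5′ to 3′ on the gene's strand, and come from RefSeq on build GRCm38.p6, chr6:71199629-71199878 on the plus strand for Fabp1 and chr15:101940325-101940574 on the minus strand for Krt79. Entries were matched for 8 of the 10 genes. Capitals mark matches on either strand to AGGTCA (a single element of nuclear receptor sites), GAGGAA (a core bound by PU.1), TTGCNNAA (bound by C/EBP factors) and TATAAA (the TATA box).
Fabp1: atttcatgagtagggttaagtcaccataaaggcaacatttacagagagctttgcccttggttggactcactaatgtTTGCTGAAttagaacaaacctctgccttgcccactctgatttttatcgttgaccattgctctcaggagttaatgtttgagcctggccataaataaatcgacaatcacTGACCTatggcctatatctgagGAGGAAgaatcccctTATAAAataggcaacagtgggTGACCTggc
Krt79: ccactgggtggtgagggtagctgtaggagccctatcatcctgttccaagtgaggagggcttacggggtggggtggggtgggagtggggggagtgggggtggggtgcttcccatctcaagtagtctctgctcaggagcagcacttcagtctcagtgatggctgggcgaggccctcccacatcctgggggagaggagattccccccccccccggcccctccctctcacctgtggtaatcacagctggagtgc
The Fabp1 stretch held AGGTCA at bases 184 to 189 and 242 to 247, each on the opposite strand. GAGGAA lay at bases 206 to 211, TTGCNNAA at 77 to 84 and TATAAA at 221 to 226, and no match overlapped another. The Krt79 stretch held none of the 4 motifs. Of 32851 mouse promoter stretches of this length, 14.0% held AGGTCA, 23.3% GAGGAA, 9.56% TTGCNNAA and 12.4% TATAAA. The matched genes have 11 such stretches, some genes more than 1. Of these, Fabp1 included, 4 held AGGTCA, 3 GAGGAA, 4 TTGCNNAA and 3 TATAAA, so none of the motifs was particular to Fabp1. A match is a description of the letters and not a sign that a factor binds there.

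Before the members, 3 facts about the arrays bear on their values. The deposited signals were scaled to a common trimmed mean, with a median between 97.4 and 114.2 per array, so a shift of all genes together could not be seen. Over all genes, 93 were lower and 75 higher in the mutant at a limma adjusted p under 0.05. With any 1 array left out these counts ran from 1 to 41 lower and from 1 to 35 higher, the lowest without wild-type array 2, so the calls given below depend on single arrays. The probe set with the higher Bmi1 signal read 1047 ± 102 (SD, n = 3) in wild type and 1446 ± 151 in the mutant, with no overlap. The other read 588 ± 83.4 and 665 ± 147 and overlapped, so Bmi1 signal was not lower on the mutant-labelled arrays. Whether these probes lie outside the deleted part is not given in the sources used here.

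Fabp1 had the greatest deficit in the mutant of all 18193 genes. Its signal was 4320, 6204 and 8415 on the wild-type arrays and 147, 130 and 276 on the mutant arrays. Every wild-type value stood far above every mutant value. The means were 6313 ± 2050 (SD, n = 3) and 184 ± 79.8, a ratio of 34.3. On the log2(signal + 16) scale, on which all log2 differences here are given as mutant minus wild type, that is -5.00 ± 0.35 (limma standard error). Its second probe set gave 1721, 2339 and 3327 against 47.0, 21.4 and 111, a log2 difference of -5.16. Wild-type array 3 was the highest and mutant array 2 the lowest by both probe sets.

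Krt79 had the tenth greatest deficit by size of the log2 difference. Its only probe set read 2053, 1842 and 3058 on the wild-type arrays and 171, 477 and 272 on the mutant arrays, again without overlap. The means of 2318 ± 650 and 306 ± 156 (SD, n = 3 each) differ 7.56-fold, and the log2 difference was -2.93 ± 0.38. The mutant arrays did not order in the same way in both genes. Mutant array 2 was the lowest for Fabp1 and the highest for Krt79.

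**Figure D1:**
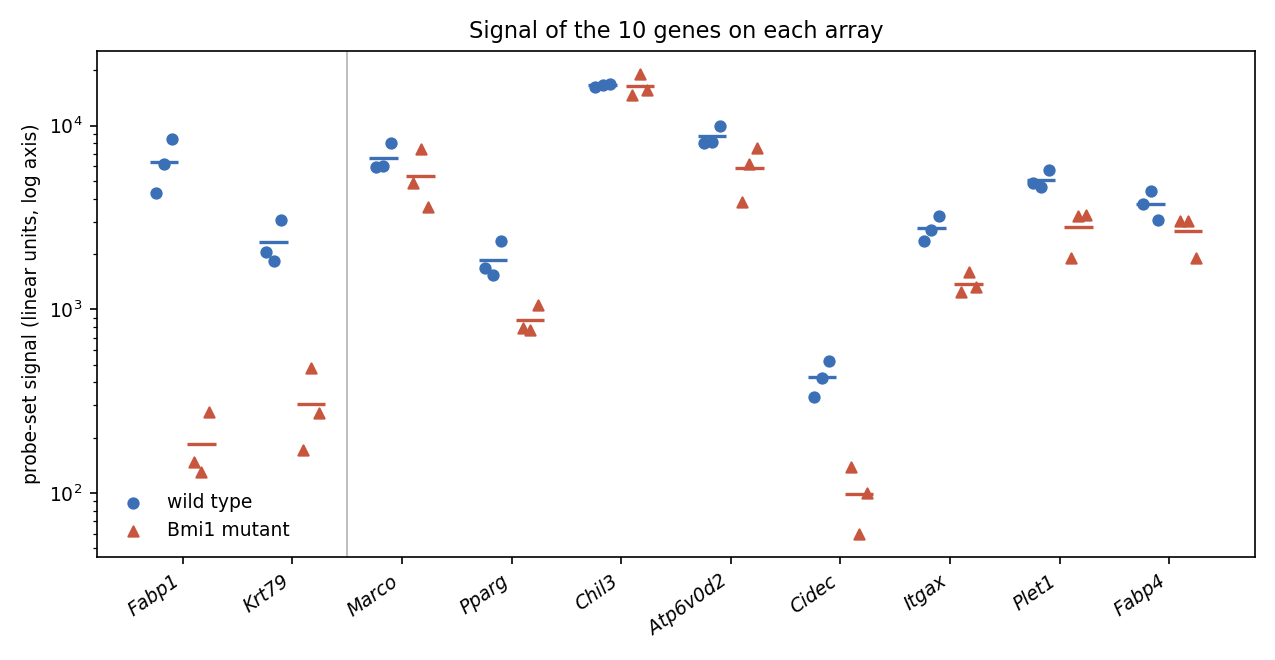
Signal of the 10 genes on each of the 6 arrays, on a log axis in units of the deposited scaled intensity, with 1 point per array and a bar at each genotype's mean. The wild-type and mutant points of Fabp1 and Krt79 are far apart, those of Cidec, Pparg, Itgax, Plet1, Atp6v0d2 and Fabp4 are apart by less, and those of Marco and Chil3 overlap.

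Among the 8 alveolar macrophage genes, those of lipid handling come first. Cidec encodes a protein that coats lipid droplets and makes them fuse. It read 334, 420 and 524 in wild type and 139, 59.8 and 99.6 in the mutant. Its 3 mutant values all lay below its wild-type values, and its log2 difference of -1.98 ± 0.30 was the largest of the 8. It was the only one of the 8 under the threshold (limma adjusted p = 0.0422), and leaving out any 1 of the 6 arrays took it above (0.0702 to 0.158).

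Pparg, the nuclear receptor itself, read 1686, 1535 and 2357 in wild type and 788, 776 and 1061 in the mutant. The genotypes did not overlap, with a log2 difference of -1.06 ± 0.23 (limma adjusted p = 0.0979). Fabp4, a fatty acid binding protein of macrophages and fat cells and a known target of PPARG, read 3754, 4386 and 3080 against 3040, 3025 and 1897. Here the lowest wild-type array lay only just above the highest mutant array, and the log2 difference was -0.51 ± 0.25. The 3 other probe sets of Fabp4 gave -1.23, -1.82 and -0.92, the last of them dim on every array, so the brightest one, which stands for the gene, gave the smallest difference.

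Of the surface proteins, Itgax encodes CD11c, the integrin chain by which alveolar macrophages and dendritic cells are often sorted. Its signal was 2362, 2693 and 3231 in wild type and 1236, 1589 and 1316 in the mutant, apart on every array, with a log2 difference of -0.99 ± 0.19 (limma adjusted p = 0.0763). Plet1, a membrane-anchored protein that alveolar macrophages and some epithelial progenitors carry, read 4840, 4615 and 5746 against 1905, 3211 and 3270. These do not overlap, and the log2 difference was -0.89 ± 0.25. A second Plet1 probe set gave -0.95 and the third gave -0.44 with overlapping genotypes. Marco encodes a scavenger receptor that binds particles and bacteria. It read 5940, 6054 and 8014 against 4888, 7496 and 3588, so mutant array 2 exceeded the lower pair of wild-type arrays. Its log2 difference was -0.38 ± 0.29, and its second probe set gave -0.75, also with overlap.

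The last of the 8 belong to the lysosome and the secreted proteins. Atp6v0d2 encodes a subunit of the proton pump that acidifies lysosomes, in a form used by macrophages and osteoclasts. It read 8047, 8127 and 9988 in wild type and 3820, 6140 and 7577 in the mutant, apart but close, with a log2 difference of -0.62 ± 0.27, and its other probe set gave -0.76. Chil3 encodes Ym1, a chitinase-like protein secreted in quantity by alveolar macrophages, and its probes may also read the closely similar Chil4. Its signal was 16126, 16704 and 16817 against 14666, 19140 and 15653. The mutant arrays lay on both sides of the wild-type arrays, and the log2 difference was -0.01 ± 0.17. Chil3 was above the 99.8th percentile of its array on all 6 arrays, a range in which array signals may be compressed.

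Over these 8 genes, 1 was called lower and 0 higher, where 0.511% of all genes tested were called lower and 0.412% higher. In 6 of the 8 every mutant array lay below every wild-type array, against 10% of all genes, and in 0 did every mutant array lie above, against 10.4%. The log2 difference was below 0 in 8 of 8, with a median of -0.76, beside a median of 0.01 over all genes. At an unadjusted p under 0.05, 4 of the 8 were lower and 0 higher, against 7.04% and 7.51% of all genes. The adjusted p values of the 8 ran from 0.0422 to 0.979, and values above the threshold do not show that a gene did not differ. Chil3 was so near 0 that leaving out mutant array 1 or mutant array 3 turned its sign, which left 7 of 8 below 0. Counting probe sets, 14 of the 18 annotated to the 10 genes were lower without overlap. They include the 2 of Fabp1 and the 1 of Krt79, genes chosen for their deficit, and 4 of Fabp4 alone. The share over all probe sets is not given here, so this count has no background to be read against.

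Fabp1 and Krt79 thus read lower in the same arrays as most of the other 8, but by more. On each array the mean of the 8 genes, as a deviation from the wild-type mean, was -0.12, -0.05 and 0.17 in wild type and -0.91, -0.70 and -0.81 in the mutant. The 8 together were lower on each mutant array than on any wild-type array. With that mean subtracted array by array, Fabp1 stood at -0.37, 0.07 and 0.30 in wild type and at -4.32, -4.69 and -3.58 in the mutant. Krt79 stood at -0.02, -0.25 and 0.26 in wild type and at -2.70, -1.51 and -2.18 in the mutant. The remaining mean log2 differences were -4.19 for Fabp1 and -2.13 for Krt79, and no array of either genotype reached the other. These values describe 2 genes that were picked for their deficit.

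**Figure D2:**
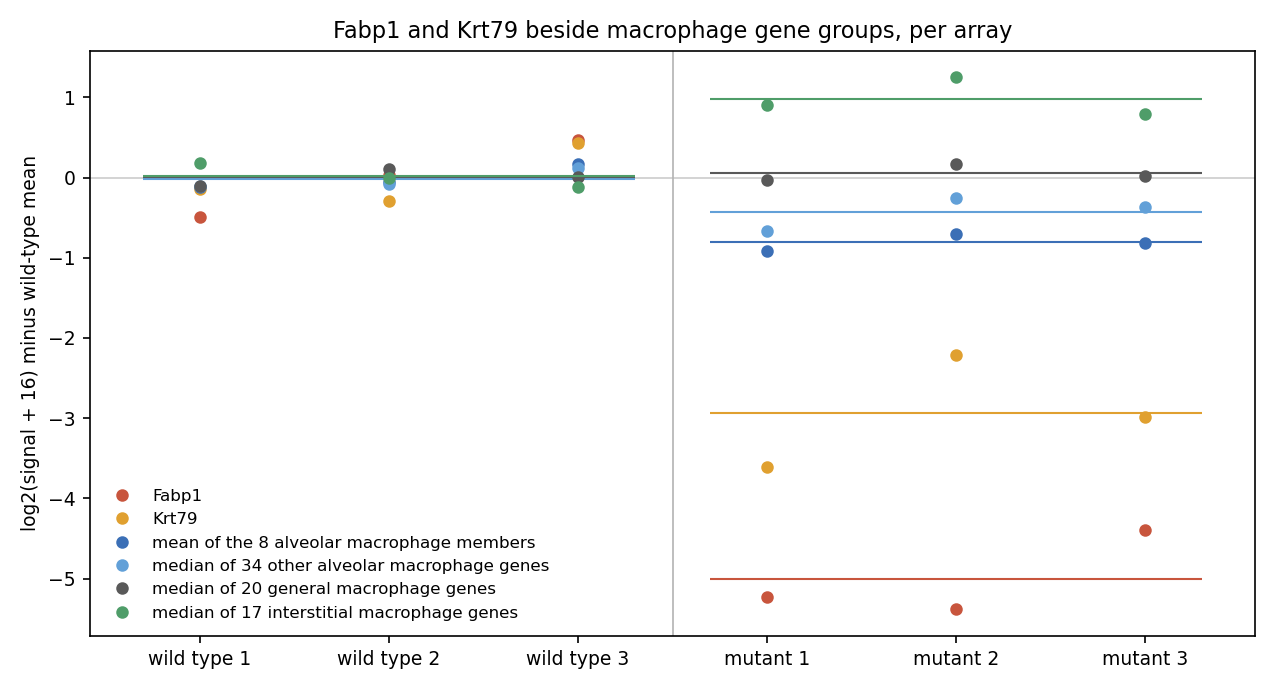
Deviation of Fabp1, of Krt79 and of the mean of the 8 alveolar macrophage genes from the wild-type mean, in log2 units, on each of the 6 arrays. Also drawn are the medians of 34 further alveolar macrophage genes, of 20 macrophage genes in general and of 17 interstitial macrophage genes. On the mutant arrays the mean of the 8 lies between -0.91 and -0.70, Krt79 between -3.61 and -2.21 and Fabp1 between -5.38 and -4.39.

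The members also varied together within wild type. Wild-type array 3 was the highest of its group in 9 of the 10 genes, the exception being Fabp4, whereas over all genes it was the highest in 33.1%. The lowest mutant array was array 1 in 5 genes, array 2 in 3 and array 3 in 2. What sets wild-type array 3 apart in these genes was not tested.

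A wider list of alveolar macrophage genes gave a mixed picture. Of 38 further genes 34 were measured. In the mutant 5 were called lower and 0 higher, where 0.511% and 0.412% of all genes were. Without overlap 18 were lower and 1 higher, against 10% and 10.4% of all genes. Of the 34 differences 26 were below 0, and the median was -0.47. At an unadjusted p under 0.05, 17 of the 34 were lower and 0 higher, where 7.04% and 7.51% of all genes were. The list was drawn up with earlier results of these arrays known, so its counts are not independent evidence of a direction.

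The 5 called genes fell as follows. Gal, which encodes the neuropeptide galanin, fell from 562, 619 and 864 to 71.0, 99.1 and 81.1, a log2 difference of -2.79 ± 0.22 (limma adjusted p = 0.00951). Vstm2a fell from 287, 234 and 295 to 41.0, 52.4 and 21.9, a difference of -2.44 ± 0.25 (limma adjusted p = 0.015). Siglecf, the sialic acid binding receptor that with CD11c defines alveolar macrophages in flow cytometry and that eosinophils also carry, read 3205, 3236 and 4957 in wild type. In the mutant it read 580, 1188 and 742, a difference of -2.19 ± 0.31 (limma adjusted p = 0.0354). Il18, which encodes a cytokine of the interleukin 1 family, fell from 1888, 2146 and 4190 to 376, 724 and 485, a difference of -2.30 ± 0.37 (limma adjusted p = 0.0482). Cd2, an adhesion molecule that lymphocytes also carry, fell from 3148, 4085 and 4001 to 968, 1545 and 1373, a difference of -1.54 ± 0.23 (limma adjusted p = 0.0404). In all 5 every mutant array lay below every wild-type array. None of the 5 differences came near that of Fabp1. That of Gal lay within a standard error of that of Krt79 (-2.93 ± 0.38), so Krt79 did not stand apart from all genes of this list. With 1 array left out at a time, between 0 and 3 of the list's genes were called lower, 0 of them without wild-type array 2.

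At the other end, several well-known genes of the list differed little between the genotypes. Car4, a carbonic anhydrase of the cell surface, differed by -0.07, Lpl, a lipoprotein lipase, by -0.12, and Cd36, a fatty acid transporter, by 0.07. Fabp5, another fatty acid binding protein, differed by 0.19, and the chemokine gene Ccl6 by 0.16. The genotypes overlapped in each. The lung's epithelial and endothelial cells express several genes of the list as well, Car4, Cd36, Lpl, Krt19 and Perp among them. Between the ends, Siglec1, a sialic acid receptor of macrophages, was lower without overlap (-1.58, limma adjusted p = 0.0607), as was Abcg1, a cholesterol exporter (-0.71, limma adjusted p = 0.172). The genes of this paragraph were chosen after their values were seen.

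**Figure D3:**
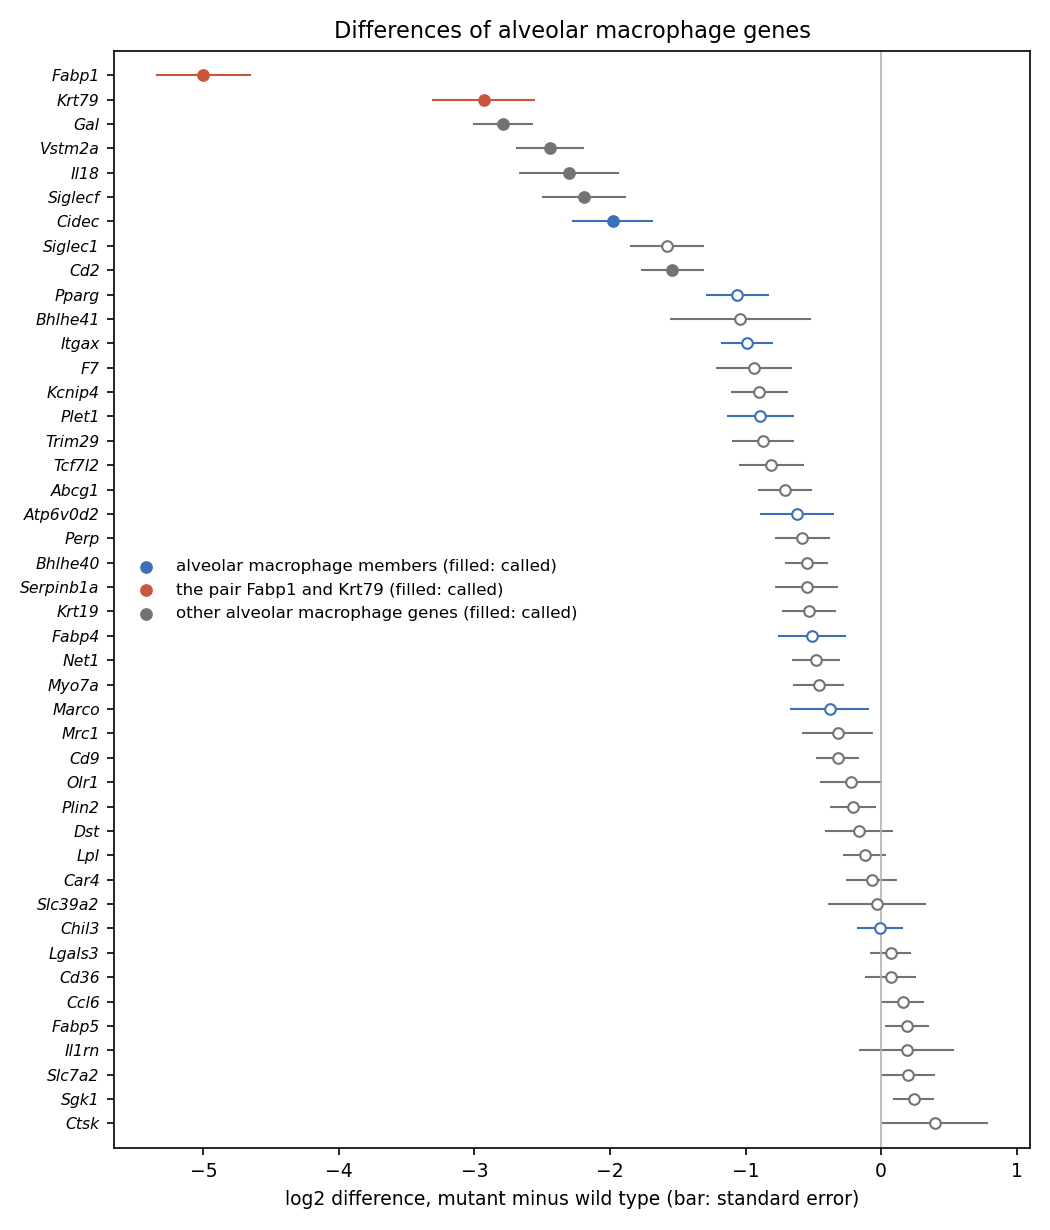
Log2 difference, mutant minus wild type, of the 10 genes and of 34 further alveolar macrophage genes, with bars of 1 limma standard error and the genes called at an adjusted p under 0.05 marked. The differences run from -5.00 for Fabp1 through -2.79 for Gal to 0.40 for Ctsk.

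Genes of blood cells gave strong signals on these arrays of cells sorted as CD45-negative. Ptprc, which encodes CD45, read 6639, 8507 and 8002 in wild type and 5048, 6708 and 5544 in the mutant, with overlap. Macrophage genes in general differed in both directions, with 7 differences below 0 and 13 above. Of 20 such genes 0 were called, with 3 lower and 2 higher at an unadjusted p under 0.05, and the median difference was 0.06. Their summed signal was 120330 to 141842 in wild type and 125141 to 145971 in the mutant, a sum in which the brightest genes weigh most. Lyz2, the lysozyme of myeloid cells that type 2 cells also make, differed by 0.10, and Cd68, a lysosomal glycoprotein, by 0.05. Msr1, a scavenger receptor, differed by 1.35 (limma adjusted p = 0.0516) and Mertk, a receptor for dying cells, by -0.76 (limma adjusted p = 0.0952), both without overlap. Itgam, the integrin chain CD11b, differed by 1.06 (limma adjusted p = 0.229).

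Genes of interstitial macrophages, which live in the tissue between the air spaces, leaned the other way from the alveolar ones. Of 17 measured, 14 differences were above 0, and the median was 0.97. Without overlap 11 were higher in the mutant and 1 lower, against 10.4% and 10% of all genes. Pf4, a platelet factor that these macrophages also make, rose from 959, 765 and 612 to 2354, 3942 and 2458, a difference of 1.87 ± 0.27 (limma adjusted p = 0.0376). It was the 1 gene called, where 0.412% of all genes were called higher and 0.511% lower. Gpnmb, a glycoprotein of lipid-laden macrophages, differed by 1.16 (limma adjusted p = 0.0608). C1qb and C1qc, complement chains, differed by 1.29 and 1.92 (limma adjusted p = 0.0894 and 0.0746), and Timd4, a receptor for dying cells, by -1.97 (limma adjusted p = 0.0725). Besides Timd4, Lyve1 (-0.80) and Cx3cr1 (-0.49) were below 0, both with overlap, which makes 3 in all. C1qb, C1qc, Lyve1 and Cx3cr1 were chosen after their values were seen. The list's summed signal was 18196 to 21583 in wild type and 29609 to 41091 in the mutant.

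Other blood cell genes moved with the genotype as well, some by as much as Krt79. All 7 measured B cell genes and all 7 natural killer cell genes were called lower, with medians of -2.34 and -2.98. Over all genes 0.511% were called lower and 0.412% higher. The genes of smallest p in these 2 lists were Ms4a1, the CD20 gene (-3.40), Cd79b (-1.96), Blk (-1.76), Pax5 (-3.04), Fcrla (-2.82) and Cr2 (-1.77) for B cells. For natural killer cells they were Klra8 (-3.0), Eomes (-2.98), Klre1 (-2.97), Ncr1 (-3.23), Gzmb (-2.77) and Klra7 (-3.14). Both lists hold genes picked from these arrays, so their counts are not independent evidence of a direction. Their summed signals were 5099 to 6513 against 731 to 1147, and 11939 to 18354 against 1952 to 3895. Of 11 dendritic cell genes 4 were called lower, Cd209a (-2.73), Ccr7 (-1.49), Siglech (-1.79) and Xcr1 (-1.86), the median was -1.33, and the sum was 35207 to 43320 against 21881 to 28850. Itgax is also a dendritic cell gene. Of 10 neutrophil genes 2 were called higher, Ltf (1.82) and Stfa3 (6.42), the latter from a family of near-identical copies, the median was 1.50, and the sum was 12229 to 16299 against 26339 to 50112. S100a8, a calcium binding protein of neutrophils, differed by 1.46 (limma adjusted p = 0.0899). Of 10 monocyte genes 0 were called, with 0 lower and 4 higher at an unadjusted p under 0.05 and a median of 0.29. Vcan, F13a1 and Fn1 had the smallest p of these, with differences of 2.26, 1.15 and 0.97 (limma adjusted p = 0.0636, 0.068 and 0.146). Of 12 endothelial genes, the other kind of cell the sort excludes, 0 were called, with 0 lower and 1 higher at an unadjusted p under 0.05, and the sums overlapped (16321 to 26988 against 20150 to 24061). Emcn, Kdr and Sox17 had the smallest p of them, with differences of 0.82, 0.64 and 0.73 (limma adjusted p = 0.273, 0.402 and 0.404). The part of blood cell content in the values of the 10 genes was not tested. In RNA from many cells, fewer cells of a kind and less RNA per cell cannot be told apart.

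**Figure D4:**
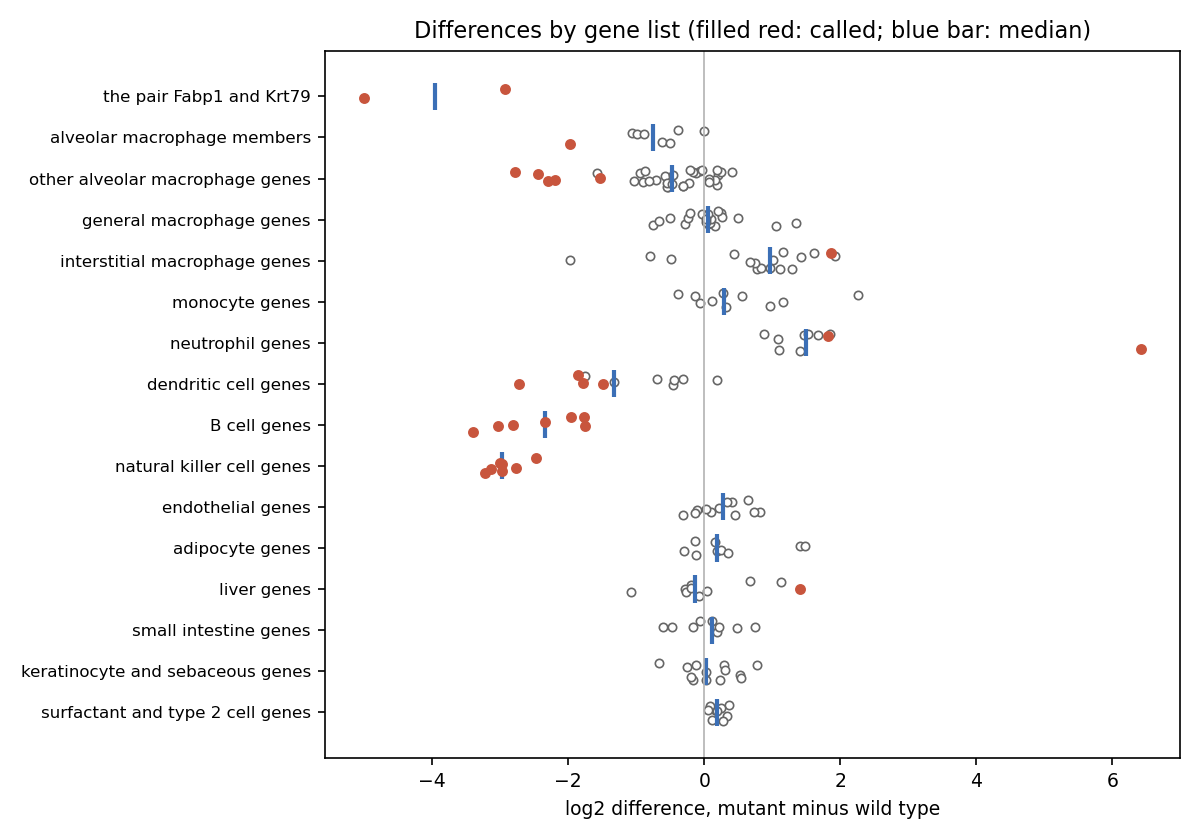
Log2 difference, mutant minus wild type, of each measured gene in lists of lung and blood cell types, 1 point per gene with a bar at the list's median. Medians are -0.76 for the 8 alveolar macrophage genes, -0.47 for the 34 further ones, 0.06 for macrophage genes in general and 0.97 for interstitial macrophage genes.

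Fabp1 and Krt79 are expressed elsewhere in the body, in liver and small intestine and in skin, and genes of those tissues were measured on the same arrays. All 10 liver genes had a mean signal under 100 in both genotypes, among them Alb, the serum albumin gene, at 39.6 and 35.2, and Apoa1, an apolipoprotein gene, at 77.2 and 73.1. Of these 10, Ttr, the transthyretin gene, was called higher at a signal of 10.2 against 53.3 (limma adjusted p = 0.0235), and Apob and Fgb differed by -1.08 and 0.67 (limma adjusted p = 0.224 and 0.463). All 9 measured small intestine genes were under 100, with Fabp2, the intestinal fatty acid binding protein gene, at 22.4 and 17.8. The smallest p of these were of Vil1, Cdx1 and Cdh17, which differed by -0.61, 0.48 and -0.47 (limma adjusted p = 0.203, 0.421 and 0.499). Among keratinocyte and sebaceous gland genes 9 of 13 were under 100 and 0 were called, with 0 lower and 1 higher at an unadjusted p under 0.05. Krt5 and Krt14, the keratins of basal keratinocytes, read 51.6 and 24.8, and 43.7 and 84.0, in wild type and mutant. The 4 others were brighter. Krt10, a keratin of differentiating keratinocytes, read 901 and 841, Krt80 799 and 978, Krt78 134 and 112, and Ivl, the involucrin gene, 78.8 and 127. Cidec, Pparg and Fabp4 are also genes of fat cells. Of 9 other fat cell genes 5 were under 100, among them Adipoq at 16.3 and 24.8, Cidea at 10.4 and 55.9 and Plin4 at 19.2 and 62.3. The other 4 were brighter, Lpl at 8002 and 7359, Pnpla2 at 809 and 1058, Gpd1 at 554 and 621 and Lipe at 122 and 112. Of the 9, 0 were called, with 0 lower and 2 higher at an unadjusted p under 0.05, and the summed signals overlapped (9118 to 10162 against 8959 to 10040). Lpl, which is also on the wider list of alveolar macrophage genes, makes up most of each sum, so the sums say little about the others. The part of these tissues' cells in the values of the 10 genes was not tested. The summed signals of the liver, small intestine and keratinocyte lists overlapped between the genotypes.

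No other member of either gene family was called. Fabp1 and Krt79 were chosen by their difference, so their own calls do not test whether they stand apart from their families. In the family of fatty acid binding proteins and their kin, Fabp1 was the only one of 14 measured genes under the threshold, and 8 of the 14 had mean signals under 100 in both genotypes. The median difference was -0.06. Fabp7, the brain form, had means of 34.8 (wild type) and 152 (mutant), a difference of 1.74 (limma adjusted p = 0.0624), and Pmp2, the form of myelin, differed by -0.67 (limma adjusted p = 0.273). Among 22 type II keratins Krt79 was likewise the only one called, 17 were under 100 in both, and the median was 0.00. Krt80 and Krt71 came next by p, with differences of 0.29 and 0.57 (limma adjusted p = 0.442 and 0.529). Krt8 and Krt7, keratins of simple epithelia, read 5413 and 6208, and 1001 and 1162, in wild type and mutant. Their differences were 0.19 and 0.22.

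Genes whose profile was most like that of Fabp1 and of Krt79 were sought among 11490 others with a mean signal of at least 100, by Pearson's r of log2 values over the 6 arrays. With 6 arrays in 2 separate groups, any gene that differs between the genotypes has a high r, so r is given only as a measure of likeness. Nearest to Fabp1 were Tor1aip2 (r = 0.9998), Klre1 (0.9960), Phgdh (0.9960), Tmem64 (0.9957) and Dynlt1f (0.9939). Because r takes no account of size, their log2 differences were unlike that of Fabp1 (-5.00). In the same order they were -0.46, -2.97, -1.94, -0.76 and -0.93. Dynlt1f is 1 of several near-identical gene copies whose signals cannot be told apart. Klre1 encodes a receptor of natural killer cells, and Phgdh the first enzyme of serine synthesis. Phgdh read 2910, 2862 and 3501 against 689, 763 and 946. Nearest to Krt79 (-2.93) were Pik3ap1 (0.9987), Siglecf (0.9983), Qpct (0.9940), Kcnn3 (0.9925) and Nrg4 (0.9912), with differences of -1.18, -2.19, -1.58, -2.15 and -1.56. Siglecf is the alveolar macrophage receptor named above. Its mutant arrays order as those of Krt79 do, with array 2 the highest and array 1 the lowest. It was picked by its r over these same arrays, so the shared order is not a separate point of likeness. Fabp1 and Krt79 had an r of 0.95 with each other. Of the other members Itgax came closest to Krt79 (0.98), and Pparg and Cidec to Fabp1 (0.96 each). Chil3 had an r of 0.03 with Fabp1 and 0.32 with Krt79.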

How the data were processed

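The authors deposited linear probe-set intensities made with Affymetrix Expression Console 1.1, according to the submitters' processing notes. The trimmed mean of each array, without its outer 2%, is 500. How probes were summarized and background removed is not given in the sources used here.

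For analysis each intensity became log2(signal + 16) without rescaling. Of 45101 probe sets, 64 controls, 932 with several symbols and 9160 with none were left out. Symbols are those of the platform annotation, which can be old. A gene's brightest probe set by mean log2 value represented it. The genotypes were compared over 18193 genes with limma 3.58.1 (lmFit, eBayes) in R 4.3.3, with Benjamini-Hochberg adjustment over all of them. Calls are at an adjusted p under 0.05. The procedure was tested on simulated data.

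The members and gene lists were chosen with earlier results of these data known. Named are all members, of each list the called genes (up to 6) and, with under 3 called, those with the smallest p (up to 3), the 5 nearest profiles, and Bmi1. Other genes, named for a high, low or equal level or for what they are known for, were chosen after their values were seen. The alternatives tried were between-array quantile normalization, centring on the median, another offset (1 or 64), a filter on dim genes, averaging of probe sets, a replicate block, array weights and leaving out each array. The number of arrays limits the precision.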

Additional observations from a re-analysis of the deposited data

How the results depend on the processing

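The number of called genes depended strongly on the settings. Over all genes, 16 were higher and 22 lower at offset 1, 120 and 144 at offset 64, and 145 and 163 of 11491 without dim genes. With 1 array left out the counts ran from 1 to 35 higher and from 1 to 41 lower, and the lowest came without wild-type array 2. The replicate block, fitted although equal replicate numbers did not deviate together (correlations of 0.073, 0.048 and 0.032), called 0 in each direction, with 1356 higher and 1255 lower at an unadjusted p under 0.05. Of the 8 alveolar macrophage genes, 0 were called lower at offset 1, 2 at offset 64, 2 without dim genes, 0 with the block (6 at an unadjusted p under 0.05) and 0 without any 1 array. Of the further alveolar macrophage genes, 1 was called lower at offset 1, 0 with the block (16 at an unadjusted p under 0.05), and between 0 and 3 with 1 array left out. Over the 14 alternatives Fabp1 was called in 12 and Krt79 in 7. Of the 6 fits with 1 array left out, Fabp1 was called in 5 and Krt79 in 1.

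Sizes moved less. Over the 14 alternatives the log2 difference of Fabp1 lay between -5.31 and -4.68 and that of Krt79 between -3.30 and -2.60. Relative to the mean of the 8 genes, over the 12 alternatives that apply, they lay between -4.50 and -3.93 and between -2.44 and -1.84. Differences of the 10 genes kept their sign in 138 of 140 cases, and the others were both of Chil3. Signals under 100, which 47.7% to 50.3% of probe sets had, limit what dim genes can show.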

Other observations

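Besides Pparg, given above, the alveolar macrophage program has other regulators. Of 19 genes of the GM-CSF, TGF-beta and PPARG pathway 0 were called by limma, with 1 lower and 0 higher at an unadjusted p under 0.05, and the median difference was -0.04. Stat5a and Stat5b, which carry the GM-CSF signal to the nucleus, and Nr1h3, a nuclear receptor of cholesterol metabolism, had the smallest p. They differed by -0.46, -0.41 and -0.65, each lower in the mutant without overlap (limma adjusted p = 0.34, 0.362 and 0.374). Csf2rb, a chain of the GM-CSF receptor, had means of 3923 ± 424 in wild type and 3930 ± 474 in the mutant (SD, n = 3 each), and Cebpb, a transcription factor of myeloid cells, 7195 ± 777 and 8308 ± 735. Both genotypes overlapped in each. Csf2rb and Cebpb were chosen after their values were seen.

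Among 19 measured subunits of the lysosomal proton pump, which include Atp6v0d2, 0 were called by limma, with 1 lower and 2 higher at an unadjusted p under 0.05, and the median was -0.01. Atp6v0a1, Atp6v0e2 and Atp6v0a2 had the smallest p, with differences of 0.54, 0.89 and -0.54 (limma adjusted p = 0.203, 0.266 and 0.308). Of 19 lipid droplet genes Cidec was the 1 called, and the median was 0.03. Its relative Cidea differed by 1.48 (limma adjusted p = 0.107) and Fitm2, which helps droplets form, by 0.62 (limma adjusted p = 0.24). Surfactant and type 2 cell genes, which mark the epithelium the sort keeps, had 9 of 9 differences above 0 and a median of 0.19. Of these 0 were called by limma, with 0 lower and 0 higher at an unadjusted p under 0.05. Sftpb, Napsa and Sftpd had the smallest p, with differences of 0.34, 0.37 and 0.28 (limma adjusted p = 0.349, 0.386 and 0.439). Their summed signal was 88245 to 100699 in wild type and 106355 to 110600 in the mutant.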
